A study of Mus musculus with 4 samples.

Results

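The genes of the major histocompatibility complex (MHC) and of antigen presentation were examined in single cells of the neonatal mouse tibia. Members were the 34 genes of the count matrix whose symbol starts with H2- and 9 named partners (B2m, Cd74, Ciita, Nlrc5, Tap1, Tap2, Tapbp, Psmb8 and Psmb9), 43 of 31053 genes in all. Cells came from 2 whole tibiae, pooled, of 1 male mouse at postnatal day 6 with the genotype Col10a1Cre;Rosa26-Tdtomato;Irx3 +/Δ;Irx5 +/-. Cre under the Col10a1 promoter acts in hypertrophic chondrocytes (HCs) and marks them and their descendants with tdTomato. The mouse is a control with lowered doses of Irx3 and Irx5, and no wild-type mouse was analysed here. The study writes the Irx3 genotype as +/ΔHC, its notation for a deletion by this Cre in HCs and their descendants. Levels in HCs and in reporter-marked cells can therefore not be told apart from the Irx3 dose. The 4 sequencing entries hold 1 library, so there is no replicate: nothing was tested, and every interval covers counting error only.

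The study used this library to follow how HCs become osteoblasts. Of 14181 barcodes with a median of 8235 unique molecular identifiers (UMIs, the tags that count captured transcripts), 8255 cells were kept, with a median of 13957 UMIs. Clustering without the members gave 46 clusters, and 20 classes were named from marker genes; 645 cells (7.81%) in 9 clusters stayed unnamed, 200 of them called doublets. A class is named X-like because its name rests on rebuilt clusters and not on the study's annotation. A level is the pooled count of a gene in all cells of a class, scaled to 1000000 UMIs (CPM) and given with exact Poisson 95% intervals. Erythroid-like cells (470) served as the background from free RNA for class II genes only. They are no such floor for class I, where they held 153 CPM of B2m and 139 CPM of H2-D1. Both values are above those of chondrocyte-like and hypertrophic chondrocyte-like cells.

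MHC class I molecules sit on almost all nucleated cells and show peptides from inside the cell to CD8+ T cells. Each is a heavy chain (H2-K, H2-D or H2-L in mice) bound to beta-2 microglobulin, the product of B2m. Immunoproteasome subunits cut the peptides, the TAP transporter brings them into the endoplasmic reticulum and tapasin (Tapbp) helps to load them. MHC class II molecules are pairs of an alpha and a beta chain (H2-Aa with H2-Ab1, or an E pair with H2-Eb1), are assembled on the invariant chain Cd74, take up peptide with the help of H2-DM, and are known from dendritic cells, B cells and macrophages. Ciita is the master transactivator of class II genes, and Nlrc5 is its counterpart for class I genes.

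Of the 43 members, 39 lie on chromosome 17 between 33915899 and 37483552 (GRCm38, GENCODE M21), among them all 34 H2- genes. Promoters of these genes are known for a shared module in which an X2 box and a Y box lie at a fixed distance. In windows from 250 bases before to 50 bases after the start, which RefSeq (GRCm38.p6) gave for 36 members, ATTGG (the core of the Y box) and TGACG or TGATG (the core of the X2 box) were searched on both strands. The pair in this order, with the starts 20 to 30 bases apart, was in 13 of the 36 members (36.1%) and in 332 of 27025 genes (1.23%). The distance range was set after members had been viewed, and the pair overlaps both single motifs. ATTGG alone was in 32 of the 36 (88.9%) against 41.1% of all genes, and TGACG or TGATG alone in 31 (86.1%) against 57.0%. The interferon motif GAANNGAAA was in 8 members (22.2%) against 8.68% of all genes. Of the genes that the results below turn on, H2-K1, H2-D1, B2m, H2-Aa, H2-Eb1, H2-DMb1 and H2-DMb2 held the pair and H2-DMa did not. H2-Ab1, Cd74, Ciita, Nlrc5, Tap2, H2-Q1 and H2-T24 were not searched, having no window in the table used. The 160 bases before the start are shown for 6 of them, 3 of class I and 3 of class II, because these genes went different ways in cartilage. Capitals mark the TGACG or TGATG (joined where matches overlap) and the ATTGG that form the pair.
H2-K1 (chr17:34000348-34000507, minus strand): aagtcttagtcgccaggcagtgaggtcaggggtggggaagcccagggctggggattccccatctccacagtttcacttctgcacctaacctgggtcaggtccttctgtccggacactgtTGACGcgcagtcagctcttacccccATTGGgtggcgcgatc
H2-D1 (chr17:35262934-35263093, plus strand): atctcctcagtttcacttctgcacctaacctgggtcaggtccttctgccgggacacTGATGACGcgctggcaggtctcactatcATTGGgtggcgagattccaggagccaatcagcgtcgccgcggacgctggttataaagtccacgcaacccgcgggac
B2m (chr2:122147527-122147686, plus strand): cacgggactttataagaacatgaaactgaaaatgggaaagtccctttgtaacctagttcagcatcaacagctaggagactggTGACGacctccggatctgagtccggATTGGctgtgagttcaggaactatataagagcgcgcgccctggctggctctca
H2-Aa (chr17:34287824-34287983, minus strand): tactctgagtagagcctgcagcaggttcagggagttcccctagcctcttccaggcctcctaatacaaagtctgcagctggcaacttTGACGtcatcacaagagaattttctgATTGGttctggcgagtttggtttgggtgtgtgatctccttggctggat
H2-Eb1 (chr17:34305707-34305866, plus strand): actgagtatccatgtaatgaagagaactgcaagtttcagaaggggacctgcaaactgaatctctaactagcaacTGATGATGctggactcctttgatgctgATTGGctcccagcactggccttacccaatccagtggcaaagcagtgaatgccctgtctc
H2-DMb1 (chr17:34153031-34153190, plus strand): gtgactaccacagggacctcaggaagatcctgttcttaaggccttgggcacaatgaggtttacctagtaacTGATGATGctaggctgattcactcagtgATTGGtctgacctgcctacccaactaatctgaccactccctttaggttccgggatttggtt
Where TGACG or TGATG matches overlap, as in H2-D1, H2-DMb1 and H2-Eb1, the distance was counted from the last of them. Counted so, the starts of the 2 boxes are 25 bases apart in H2-K1, H2-D1, B2m and H2-DMb1, 26 in H2-Aa and 24 in H2-Eb1. From the start of the capitals the distance is longer in the genes with overlapping matches. The starts are those of RefSeq, and for H2-D1 and H2-DMb1 they lie inside the gene as GENCODE M21 gives it. The match is a description of the letters and shows no binding.

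**Figure D1:**
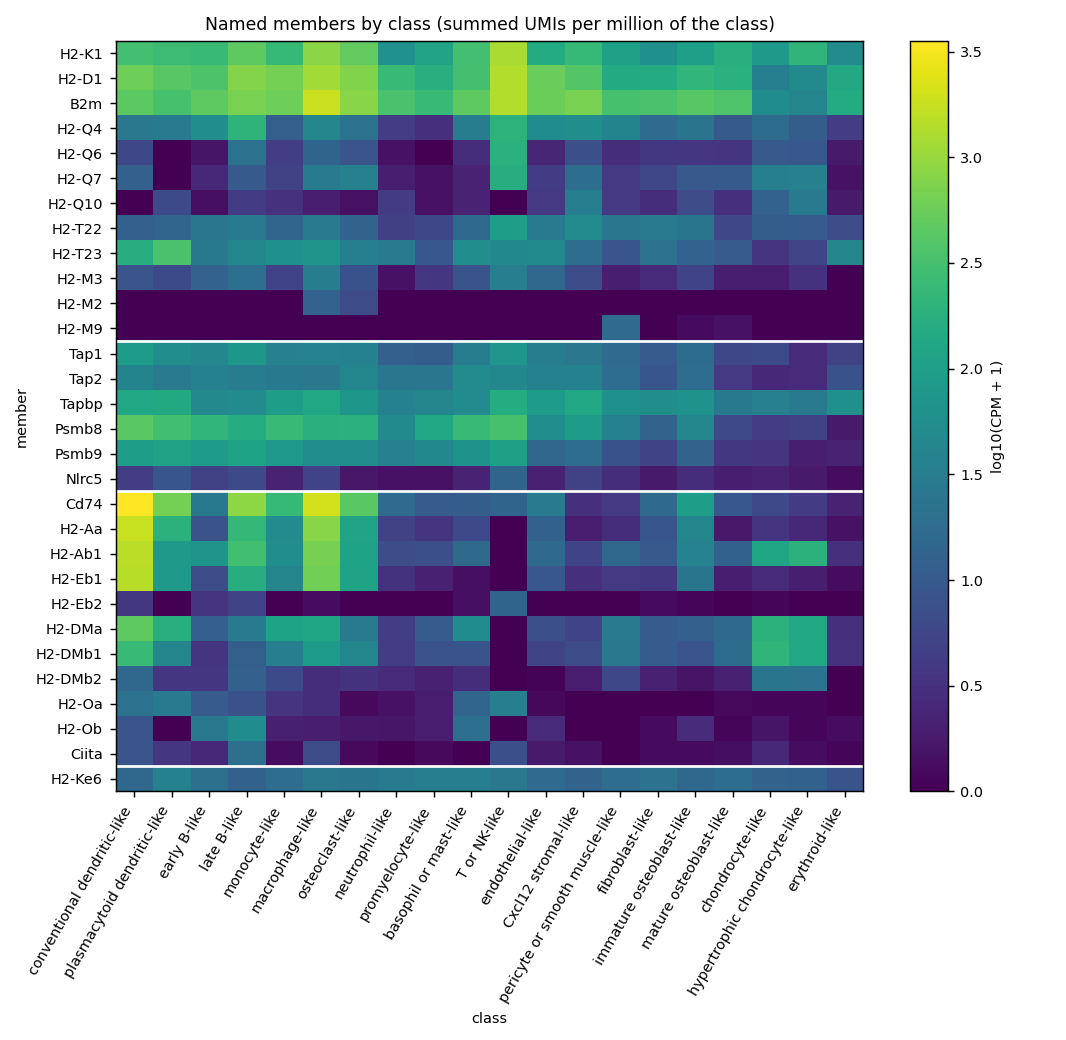
Level of the 30 named members (rows) in the 20 classes (columns) as log10(CPM + 1); white lines part class I heavy chains with B2m, loading genes, class II genes and H2-Ke6. The Cd74, H2-Aa, H2-Ab1 and H2-Eb1 rows are brightest in conventional dendritic-like and macrophage-like cells, and H2-Ab1, H2-DMa, H2-DMb1 and H2-DMb2 are also bright in the chondrocyte-like columns.

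Among the pooled classes, class II chains were highest in conventional dendritic-like cells (107 cells), which are 1 cluster. There Cd74 stood at 3557 CPM, H2-Aa at 1786 CPM, H2-Ab1 at 1532 CPM and H2-Eb1 at 1459 CPM. Macrophage-like cells (237) followed with 2003 CPM of Cd74 and 826 CPM of H2-Aa, then late B-like cells (333) with 897 CPM of Cd74 and plasmacytoid dendritic-like cells (49) with 637 CPM. Osteoclast-like cells (176), the bone-resorbing relatives of macrophages, held 433 CPM of Cd74 and monocyte-like cells (516) 235 CPM. Of the 2465 monocyte-like UMIs of H2-Aa, H2-Ab1, H2-Eb1 and Cd74, 84.3% lay in 26 cells, and the cluster led by Ptgs2 and Cxcl3 held 2043. The median monocyte-like cell held 0, and those with fewer than 10 held 62.9 CPM. Neutrophil-like, promyelocyte-like and basophil or mast-like cells held 9.87 to 16.5 CPM, early B-like cells 25.9 CPM and erythroid-like cells 1.26 CPM. Of the 175 neutrophil-like UMIs of Cd74 and the 3 chains, 81.1% lay in 2 of 517 cells, both with Cd79a. The other neutrophil-like cells held 5.43 CPM of these genes. By family, the summed CPM of H2-Aa, H2-Ab1, H2-Eb1 and Cd74 was 6819 (6700 to 6941) in dendritic-like cells, 701 (691 to 711) in myeloid-like cells, 591 (574 to 609) in B-like cells, 148 (145 to 151) in skeletal cells, 63.6 (58.7 to 68.7) in endothelial-like cells, 24.8 (21.3 to 28.8) in stromal cells and 4.08 (2.67 to 5.98) in erythroid-like cells. No neighbours in this order have overlapping intervals, which cover counting error only. The order of endothelial-like and stromal cells rests on few cells. Without cells that hold Ptprc (the leukocyte antigen CD45), their sums were 12.96 and 12.8 CPM.

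The dendritic label rests on few markers. The cluster named conventional dendritic-like was led by Gcnt2, Cd7, Il12b and Ptger4, had 1 marker (Flt3) among its top 10 genes, and held 7 markers at 10 CPM or more, with Zbtb46 at 10.4 CPM and Siglech, a plasmacytoid marker, at 149.6 CPM. Its class II transcripts were uneven: 53 of its 107 cells held 99.0% of the 11980 class II UMIs, the median cell held 8 and the highest 766. The cluster therefore holds cells with much and with little class II, and its CPM is a mean over both. Class II was found in 92 of the 107 cells, and those with fewer than 10 UMIs of it still held 161.5 CPM.

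**Figure D2:**
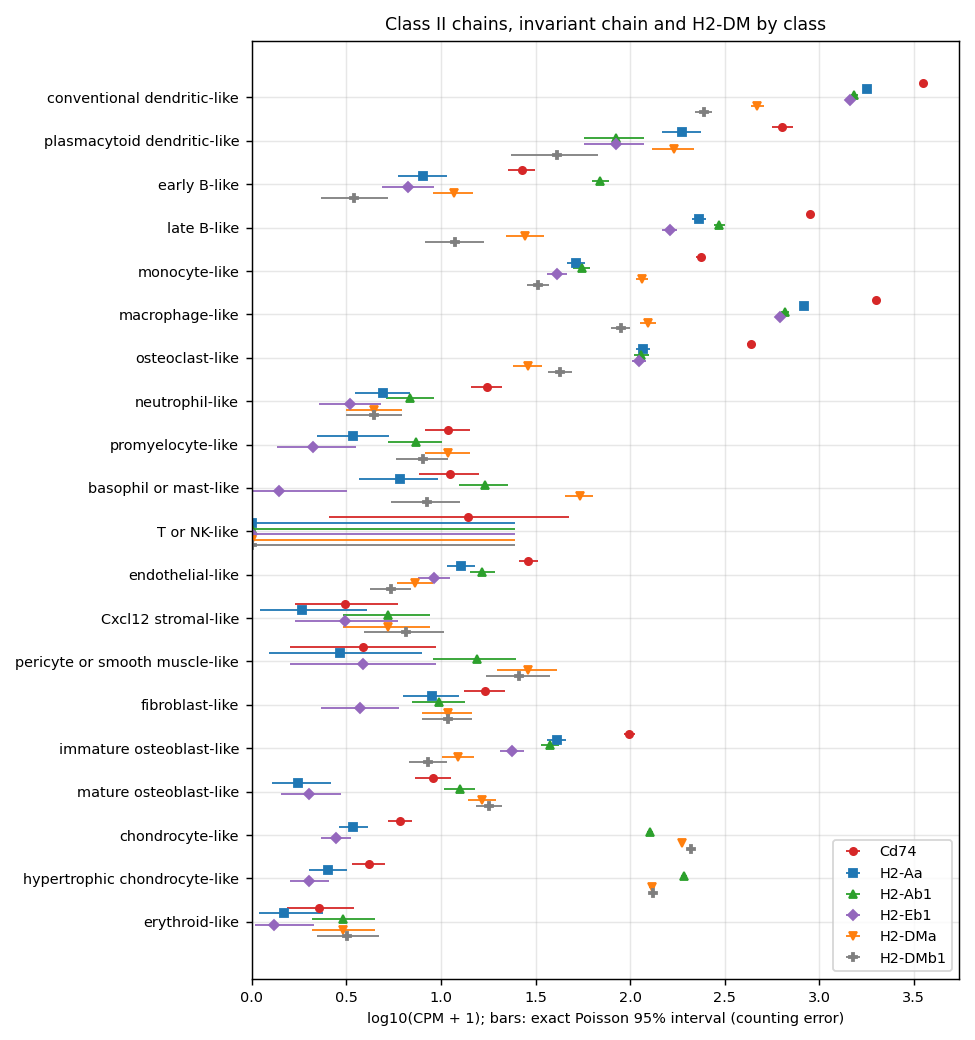
Cd74, H2-Aa, H2-Ab1, H2-Eb1, H2-DMa and H2-DMb1 as log10(CPM + 1) in 20 classes, with exact Poisson 95% intervals as bars. In dendritic-like, macrophage-like and late B-like cells Cd74 lies to the right of the chains, whereas in chondrocyte-like cells H2-Ab1, H2-DMa and H2-DMb1 (127, 188 and 208 CPM) lie far to the right of Cd74 (5.07 CPM) and H2-Aa (2.44 CPM).

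Within the macrophage-like class, 2 clusters differed in class II. The cluster led by Cxcl1, Apoe and Spp1 (97 cells) held 5199 CPM of Cd74 and 2241 CPM of H2-Aa, more than the conventional dendritic-like cluster. The cluster led by Pf4, C1qa and C1qc (140 cells) held 782 CPM of Cd74 and 285 CPM of H2-Aa. The order was the opposite for C1qa, at 1241 CPM in the former and 3490 CPM in the latter. B2m was at 1588 and 1924 CPM and H2-K1 at 717 and 902 CPM, so class I was slightly higher in the cluster with less class II. Ciita stood at 11.5 and 3.08 CPM.

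Cd74 and the class II chains were lower in osteoclast-like than in macrophage-like cells. Of 22 members with at least 10 CPM in either class, 9 were higher in macrophage-like cells by 2-fold or more, where 13.7% of 8020 genes were, and 0 were lower, where 7.48% of genes were. The median log2 ratio was 0.95 over the members and -0.06 over all genes. H2-Aa differed by 7.04-fold (826 against 117 CPM), H2-Ab1 by 5.75-fold and Cd74 by 4.62-fold, while Psmb8 (181 against 183 CPM) and Tap1 (36.7 against 35.4 CPM) lay within counting error. H2-DMa, a chain of the peptide editor H2-DM, differed by 4.32-fold and H2-M3, which shows formylated peptides, by 4.13-fold. The macrophage-like level of class II rests mostly on the cluster led by Cxcl1, which held 9621 of the 12873 class II UMIs. In the cluster led by Pf4 the class II sum was 1433 CPM, against 774 CPM in osteoclast-like cells, a smaller gap. In 43 of the 176 osteoclast-like cells lay 94.6% of the class II UMIs, and 32 of the 43 also held C1q transcripts; the part of mixed cells in this level was not tested.

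Along the B lineage, Cd74 and the classical class II chains differed more than the classical class I chains. Early B-like cells (407), with Vpreb1, Rag1 and Igll1 among their leading genes, held 68.5 CPM of H2-Ab1 but 7.04 CPM of H2-Aa, 5.71 CPM of H2-Eb1 and 25.9 CPM of Cd74. Late B-like cells held 296, 231, 161 and 897 CPM. Of 23 members tested, 12 were higher in late B-like cells by 2-fold or more against 6.34% of 7985 genes, and 0 were lower against 4.63%. The median log2 ratio was 1.03 over the members and 0.07 over all genes. Cd74 differed by 33.5-fold, H2-Aa by 28.8-fold, H2-Eb1 by 24.1-fold and Ciita by 8.13-fold (19.5 against 1.52 CPM), whereas H2-Ab1 differed by 4.27-fold. H2-D1 was 2.16-fold and H2-K1 1.89-fold higher, B2m 1.43-fold higher, and Psmb8 was lower (157 against 220 CPM).

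H2-Ob, the beta chain of the H2-DM inhibitor H2-O, was highest in late B-like cells of all classes, at 52.7 CPM, and stood at 25.3 CPM in early B-like cells. Its partner H2-Oa was at 6.63 and 9.51 CPM there, and at 26.8 CPM in plasmacytoid dendritic-like cells, where H2-Ob had 0 UMIs in 373432 (3 counts would give 8.03 CPM). The late B-like cluster led by Iglc1, Ms4a1 and Iglc2 (38 cells) held 4556 CPM of Cd74, 940 CPM of H2-Aa, 111 CPM of H2-Ob and 39.0 CPM of H2-Oa. The 2 other late B-like clusters (61 and 234 cells) held 599 and 312 CPM of Cd74. Ciita stood at 21.02, 19.6 and 19.2 CPM in the same order, on 7, 6 and 37 UMIs.

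Cartilage carried part of the class II set. Chondrocyte-like cells (1324) held 127 CPM (122 to 131) of H2-Ab1, the beta chain, but 2.44 CPM (1.89 to 3.104) of H2-Aa, the alpha chain it pairs with. H2-Eb1 stood at 1.78 CPM and Cd74 at 5.07 CPM. Hypertrophic chondrocyte-like cells (633) held 192 CPM (185 to 198) of H2-Ab1 and 1.52 CPM (1.02 to 2.18) of H2-Aa, with 0.995 CPM of H2-Eb1 and 3.14 CPM of Cd74. This class is mixed: a Col10a1 UMI was found in 347 of its 633 cells, but also in 19.8% of erythroid-like and 20.7% of chondrocyte-like cells. The cluster led by Col10a1 holds 106 of the 633. Another 339 lie in the cluster led by Cdkn1c and Ihh, and the study lists Ihh as a pre-hypertrophic marker. Levels of the class are not those of the Col10a1-led cluster, which are given further on. For every 100 UMIs of Cd74 there were 2498 of H2-Ab1 in chondrocyte-like and 6097 in hypertrophic chondrocyte-like cells, and 43.1 in conventional dendritic-like cells. H2-Ab1 exceeded Cd74 in some other classes too, with 264.7 in early B-like cells (136 UMIs of Cd74). Outside cartilage the ratio was at most 500, in pericyte or smooth muscle-like cells (3 UMIs of Cd74). Of the 7439 class II UMIs in both cartilage classes, 7080 were of H2-Ab1. The class II sum of skeletal cells is therefore mostly 1 chain: without H2-Ab1 it is 27.0 CPM (25.8 to 28.4), below endothelial-like cells at 48.0 CPM (43.8 to 52.5). Both values lean on few cells, as given further on. Of the 1671 UMIs on the skeletal side, 1233 lay in immature osteoblast-like cells, where 12 cells held 93.1% of the class II UMIs. In endothelial-like cells 7 cells held 80.6%. The part of mixed cells in both values was not tested.

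The H2-DM genes stood beside H2-Ab1 in cartilage. H2-DMa was at 188 CPM (182 to 193) in chondrocyte-like and 129 CPM (124 to 135) in hypertrophic chondrocyte-like cells, and H2-DMb1 at 208 CPM (202 to 213) and 132 CPM (127 to 137). Among the 20 classes only conventional dendritic-like cells held more H2-DMb1 (244 CPM). H2-DMb2 was highest of all classes in chondrocyte-like cells, at 22.8 CPM, followed by 21.5 CPM in hypertrophic chondrocyte-like cells and 14.6 CPM in conventional dendritic-like cells. H2-DMb1 and H2-DMb2 are close copies, so the split of reads between them is uncertain.

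The transcripts were spread over many cartilage cells. After each cell was thinned to 5000 UMIs, H2-Ab1 was found in 36.7% of chondrocyte-like cells, in 316 of 632 hypertrophic chondrocyte-like cells and in 1.49% of erythroid-like cells, whose median depths before thinning were 19230.5, 28961 and 12388.5 UMIs. Without thinning the shares were 64.3%, 77.4% and 2.77%. H2-DMb1 was found after thinning in 49.2%, 43.5% and 1.06%. Cells with no UMI of Ptprc (the leukocyte antigen CD45), Cd74, H2-Aa or H2-Eb1 made up 1175 of the 1324 chondrocyte-like and 551 of the 633 hypertrophic chondrocyte-like cells. In these, H2-Ab1 stood at 126 and 190 CPM, H2-DMa at 191 and 131 CPM and H2-DMb1 at 211 and 137 CPM, as high as in all cells of the classes. The same selection left 4.54 CPM of H2-Ab1 in immature osteoblast-like cells and 10.3 CPM in mature osteoblast-like cells.

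Against osteoblast-like cells the members parted in both directions. Chondrocyte-like and hypertrophic chondrocyte-like cells together (1957) were set against immature and mature osteoblast-like cells (955), a comparison chosen after the values had been seen. Of 20 members with at least 10 CPM on either side, 6 were higher in cartilage by 2-fold or more, where 9.53% of 8248 genes were, and 9 were lower, where 16.2% of genes were. The 6 were H2-DMb1 (13.3-fold, 176 against 12.4 CPM), H2-DMb2 (12.7-fold), H2-DMa (11.4-fold, 163.5 against 13.5 CPM), H2-Ab1 (6.20-fold, 153 against 23.9 CPM), H2-Q10 (4.18-fold) and H2-Q7 (3.46-fold). The 9 were Cd74 (10.1-fold), B2m (8.13-fold, 47.8 against 396 CPM), H2-Aa (6.83-fold), Psmb8 (5.23-fold), H2-Eb1 (5.14-fold), H2-D1 (4.95-fold, 39.3 against 199 CPM), Tap2 (4.23-fold), H2-T23 (2.78-fold) and Tap1 (2.49-fold). H2-K1 was at 135 CPM on both sides as pooled, but it differed between the cartilage classes, as given further on. The osteoblast-like value of Psmb8 comes mostly from immature osteoblast-like cells, as also given further on. The values of Cd74, H2-Aa and H2-Eb1 in osteoblast-like cells rest on few cells, as given further on, and without cells that hold Ptprc the log2 ratio of H2-Aa turned from -2.77 to 0.74 (0.18 with at least 2000 genes per cell). Without doublet calls the log2 ratio of H2-Ab1 was 4.12 against 2.63, that of H2-DMa 5.00 against 3.51 and that of H2-DMb1 4.75 against 3.73.

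In genome order, the members high in cartilage do not form 1 unbroken block. H2-DMa (chromosome 17, 34119541 to 34139101, plus strand), H2-DMb2 and H2-DMb1 (up to 34160230) are followed by Psmb9, Tap1, Psmb8, Tap2 and H2-Ob, which stood at 0.157 to 5.21 CPM in both cartilage classes, then by H2-Ab1 (34257689 to 34269419, plus strand), and then by H2-Aa (34282744 to 34287823, minus strand). No annotated gene overlaps H2-Ab1, H2-DMb1, H2-DMb2 or H2-K1. H2-DMa overlaps CR974462.3 on its own strand, and CR974462.4, Gm20493 and Brd2 on the other. Brd2 stood at 199 CPM in both cartilage classes and at 217 and 227 CPM in osteoblast-like cells; no source used here says whether the counting used strand.

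The 6 cartilage clusters differed among themselves. The cluster led by 2610528A11Rik, Espn and Tnni2 (188 cells, with 182 CPM of Col10a1, the collagen of HCs) held the most H2-Ab1, 481 CPM (462 to 501), found in 187 of its cells. Its name, hypertrophic chondrocyte-like, rests on the mean of that marker list and on no marker among its top 10 genes. Cells of the Gdf10, Ndufa4l2 and Prelp cluster (732 cells, 12.6 CPM of Col10a1) held the most H2-DMa, 251 CPM, and H2-DMb1, 250 CPM, with 171 CPM of H2-Ab1. Another, led by F3, Penk and Ucma (400 cells), held 38.0 CPM of H2-Ab1 and 86.0 CPM of H2-DMa, and the dividing cluster (192 cells, Top2a at 426 CPM) 106 and 130 CPM. In the Cdkn1c and Ihh cluster (339 cells, 914 CPM of Col10a1) they stood at 109 and 128 CPM. The cluster led by Col10a1 itself (106 cells, 11249 CPM) held 47.8 CPM of H2-Ab1 and 9.28 CPM (6.39 to 13.03) of H2-DMa. H2-Aa was at 0.84 to 3.88 CPM and Cd74 at 1.03 to 10.1 CPM in all 6.

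**Figure D3:**
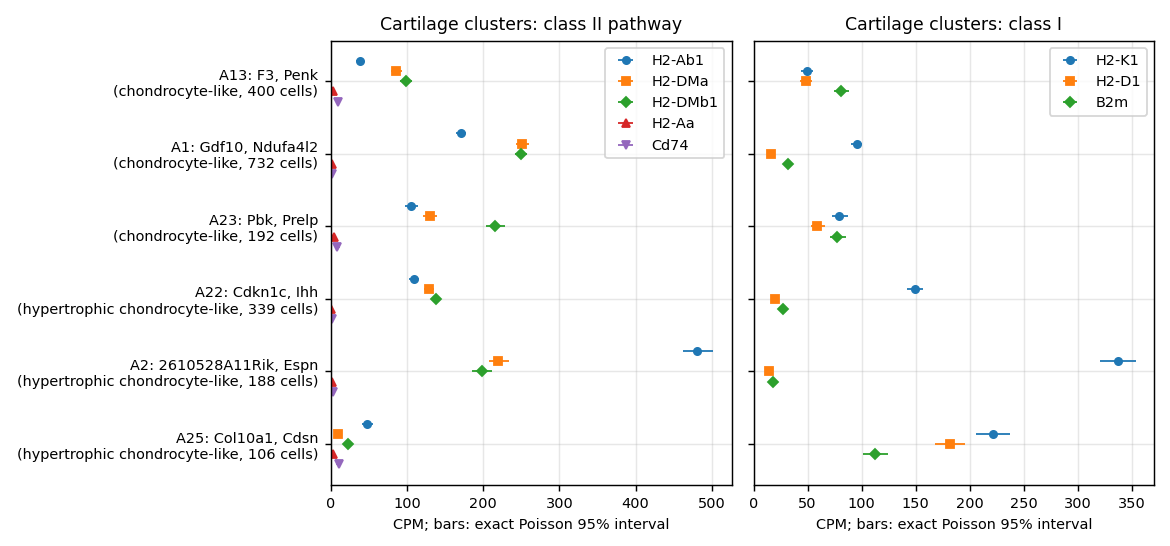
CPM of class II pathway genes (left) and of class I genes (right) in 6 cartilage clusters, each labelled with its 2 leading genes, with exact Poisson 95% intervals as bars. H2-Ab1 (481 CPM) and H2-K1 (337 CPM) are highest in the cluster led by 2610528A11Rik and Espn, where H2-D1 (14.3 CPM) and B2m (18.2 CPM) are lowest.

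Classical class I chains were highest in T or NK-like cells (24 cells, 155247 UMIs), with 1262.5 CPM of H2-K1 and 1385 CPM of H2-D1, followed by macrophage-like cells with 851 and 1162 CPM. B2m was highest in macrophage-like cells, at 1831 CPM. By family, the summed CPM of H2-K1 and H2-D1 was 855 (813 to 898) in dendritic-like, 823 (812 to 833) in myeloid-like, 810 (790 to 830) in B-like, 698 (682 to 715) in endothelial-like, 363 (349 to 377) in stromal, 215 (211 to 218) in skeletal and 190 (179 to 201) in erythroid-like cells. The dendritic, myeloid and B values do not differ beyond their counting intervals, and the other neighbours do. The myeloid value is a mean over unlike classes. It was 2013 CPM in macrophage-like, 1241 CPM in osteoclast-like, 887 CPM in monocyte-like and 629 CPM in basophil or mast-like cells. Neutrophil-like cells held 318 CPM and promyelocyte-like cells 292 CPM. H2-K1 and H2-D1 are alike in sequence, and reads that match both could be split between them. An unnamed leukocyte cluster led by Treml4, Tnf and Ace (140 cells) held 2177 CPM of H2-D1 and 1931 CPM of B2m. Its H2-D1 is above that of every named class, while its B2m does not differ beyond counting error from the 1924 CPM of the macrophage-like cluster led by Pf4. H2-K1 stood at 806 CPM and Cd74 at 700 CPM in it.

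In both cartilage classes as a whole, H2-K1 stood above H2-D1 and B2m, though not in every cluster. In chondrocyte-like cells H2-K1 stood at 81.4 CPM (78.0 to 84.9), H2-D1 at 32.8 CPM (30.6 to 35.0) and B2m at 52.9 CPM (50.2 to 55.7). In hypertrophic chondrocyte-like cells H2-K1 stood at 210 CPM (204 to 217), H2-D1 at 48.7 CPM and B2m at 40.6 CPM (37.8 to 43.6). There were 0.65 UMIs of B2m for each UMI of H2-K1 in the former and 0.193 in the latter, and 1.08 to 5.71 in the other 18 classes. For H2-D1 the ratios were 0.402 and 0.231, and 1.04 to 4.18 in the other 18. UMIs are counted near the 3' end and do not scale with gene length, but capture can differ between genes, so the change of the ratio between classes is given and not its absolute value. Both cartilage classes held less B2m than erythroid-like cells, at 153 CPM.

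Among the clusters, H2-K1 was highest in the one led by 2610528A11Rik and Espn, at 337 CPM (321 to 354), with 14.3 CPM of H2-D1, 18.2 CPM (14.6 to 22.5) of B2m and 0.0541 UMIs of B2m per UMI of H2-K1. In the Col10a1-led cluster H2-K1 stood at 222 CPM, H2-D1 at 182 CPM and B2m at 112 CPM. In the cluster led by F3 and Penk (400 of the 1324 chondrocyte-like cells) the 3 genes stood at 49.5, 48.7 and 81.4 CPM, and the ratio of B2m to H2-K1, 1.65, lay within the range of the other classes. In the dividing cluster that ratio was 0.978. After thinning, H2-K1 was found in 56.7% of hypertrophic chondrocyte-like, 28.0% of chondrocyte-like and 18.3% of erythroid-like cells, and B2m in 14.6%, 21.7% and 48.3%. Between hypertrophic and other chondrocyte-like cells, 13 members were tested: 2 (H2-K1, 2.57-fold, and H2-Q10, 2.30-fold) were higher by 2-fold or more in the hypertrophic class, where 4.08% of 7404 genes were, and 0 were lower, where 4.75% were. The median log2 ratio was -0.08 over these members and 0.04 over all genes.

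**Figure D4:**
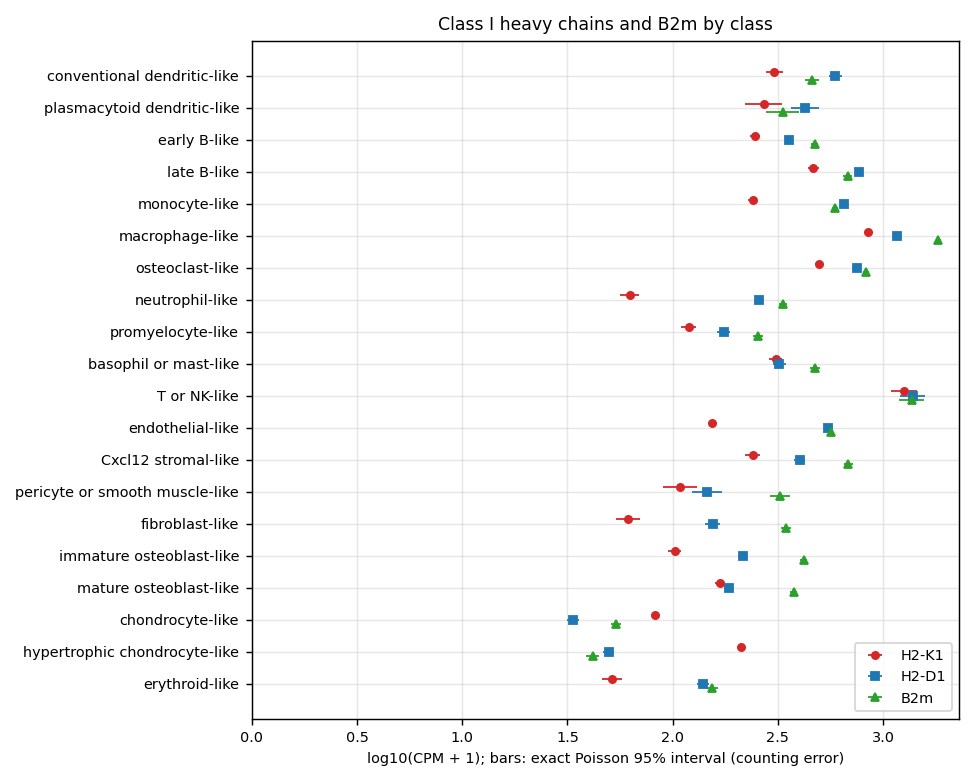
H2-K1, H2-D1 and B2m as log10(CPM + 1) in 20 classes, with exact Poisson 95% intervals as bars. H2-K1 lies to the left of H2-D1 and B2m in 18 classes and to the right of both in chondrocyte-like (81.4 CPM) and hypertrophic chondrocyte-like cells (210 CPM).

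Other class I genes of the H2-Q, H2-T and H2-M regions had patterns of their own. H2-T23, which encodes Qa-1, the ligand of NK receptors, was highest in plasmacytoid dendritic-like cells at 340 CPM, followed by conventional dendritic-like cells at 161 CPM, and stood at 2.48 CPM in chondrocyte-like cells. H2-Q4 was highest in late B-like cells, at 203 CPM, and stood at 199.7 CPM in T or NK-like cells and 51.9 CPM in endothelial-like cells. H2-T22 was at 96.6 CPM in T or NK-like and 50.8 CPM in Cxcl12 stromal-like cells (214), which hold the adipogenic stroma of the marrow. H2-Q10, known as a secreted class I chain, was highest in Cxcl12 stromal-like cells at 31.7 CPM and in hypertrophic chondrocyte-like cells at 29.2 CPM, and had 0 UMIs in conventional dendritic-like cells (3 counts would give 2.09 CPM). H2-Q7 stood at 161 CPM in T or NK-like cells, 34.2 CPM in osteoclast-like cells and 32.7 and 33.8 CPM in both cartilage classes. H2-Q6 was at 187 CPM in T or NK-like cells and 21.1 CPM in late B-like cells; H2-Q6 and H2-Q7 are close copies and their split is uncertain. H2-M3 was at 31.3 CPM in macrophage-like cells (98 UMIs) and 32.2 CPM in T or NK-like cells (5 UMIs). H2-M2 was found in macrophage-like (12.1 CPM, 38 UMIs) and osteoclast-like cells (5.67 CPM, 25 UMIs), and H2-M9 in pericyte or smooth muscle-like cells (99 cells, 16.4 CPM, 17 UMIs).

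Immunoproteasome and transport genes were highest in leukocyte classes. Psmb8, a catalytic subunit, was highest in conventional dendritic-like cells at 444 CPM and stood at 48.3 to 328.5 CPM in the other leukocyte classes, against 53.4 CPM in endothelial-like, 42.0 CPM in immature osteoblast-like, 5.12 CPM in mature osteoblast-like and 3.48 CPM in chondrocyte-like cells. Psmb9, another, was highest in late B-like cells at 115 CPM and stood at 2.44 CPM in chondrocyte-like and 0.995 CPM in hypertrophic chondrocyte-like cells. Tap1 ranged from 87.0 CPM in conventional dendritic-like to 1.68 CPM in hypertrophic chondrocyte-like cells, and Tap2 from 49.9 CPM in basophil or mast-like to 1.52 CPM in chondrocyte-like cells. Tapbp varied less, from 155 CPM in T or NK-like to 26.1 CPM in mature osteoblast-like cells. Psmb9 and Tap1 overlap on opposite strands, as do B2m and Patl2, and A930015D03Rik overlaps both H2-T22 and H2-T23 in this way. Of a list of 8 class I loading and proteasome partners, 7 were tested between cartilage and osteoblast-like cells: 4 were lower by 2-fold or more in cartilage and 0 higher, against 16.2% and 9.53% of all genes. Of 7 genes of class II processing and costimulation, 3 were tested there and all 3 (Ctss, Ctsl and Lgmn) were lower, against 16.2% of all genes. The chaperone Calr was at 1037 against 662 CPM and Psme1, a proteasome activator, at 21.8 against 62.1 CPM. C1qa stood at 41.2 CPM in immature osteoblast-like cells, in 15 of 577 cells. The part of mixed cells in the values of Ctss, Ctsl and Lgmn was not tested.

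Endothelial-like cells (823) stood apart from skeletal cells (2912) in class I. Of 21 members tested, 11 were higher in endothelial-like cells by 2-fold or more, where 29.8% of 8943 genes were, and 6 were lower, where 13.7% of genes were. The median log2 ratio was 1.28 over the members and 0.43 over all genes. The 11 were H2-T23 (7.80-fold, 48.0 against 5.29 CPM), Tap2 (7.58-fold), H2-D1 (6.76-fold, 545 against 79.7 CPM), H2-M3, Psmb8, Tap1, B2m (4.12-fold, 564 against 136 CPM), Psmb9, H2-Q4, Tapbp and H2-T22. H2-K1 differed by 1.14-fold (153 against 135 CPM), and with 10 CPM added in place of 1 the count was 9. The 6 lower members were H2-DMb1, H2-DMa, H2-DMb2, H2-Ab1, H2-Q7 and H2-Q10. These comparisons of skeletal cells share the cartilage cells, which make up 1957 of the 2912. The gap in class I was smaller to osteoblast-like cells. The sum of H2-K1, H2-D1 and B2m was 1262 CPM in endothelial-like cells and 734 and 725 CPM in immature and mature osteoblast-like cells. It was 167 CPM in chondrocyte-like, 300 CPM in hypertrophic chondrocyte-like and 1322 CPM in Cxcl12 stromal-like cells.

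Within the endothelium, the cluster led by Eln, Stmn2 and Gja4 (73 cells, with 704 CPM of Gja4, a connexin gene of arteries) held 384 CPM of H2-K1, 953 CPM of H2-D1 and 105 CPM of Psmb8. The cluster led by Emcn, Fabp4 and Plvap (750 cells) held 135, 513 and 49.3 CPM. B2m was at 689 and 554 CPM. Cxcl12 stromal-like cells held 682 CPM of B2m, with 400 CPM of H2-D1 and 87.1 CPM of Psmb8, whereas fibroblast-like cells (313) held 344, 154 and 12.3 CPM.

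**Figure D5:**
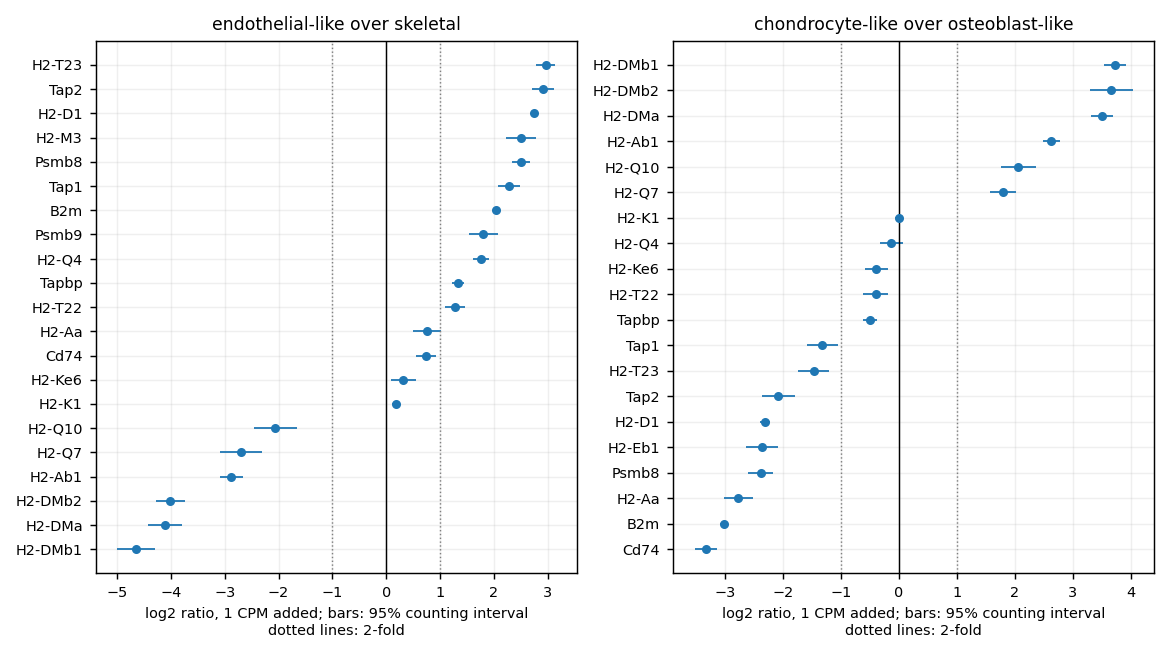
Log2 ratio (1 CPM added) of members between endothelial-like and skeletal cells (left, 21 members) and between chondrocyte-like and osteoblast-like cells (right, 20 members), with 95% counting intervals as bars and dotted lines at 2-fold. B2m and H2-D1 are at the upper end on the left and at the lower end on the right, and the H2-DM genes are the reverse.

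Class II in immature osteoblast-like and endothelial-like cells rested on few cells. Immature osteoblast-like cells (577) held 98.2 CPM of Cd74, but 12 cells held 93.1% of the class II UMIs, and all 12 had Ptprc, 6 had C1q transcripts and 8 were doublet calls. In the 528 cells without Ptprc the class II sum was 10.3 CPM. In endothelial-like cells 7 of 823 cells held 80.6% of the class II UMIs, 6 of them with Ptprc, and the sum was 12.96 CPM in the 763 cells without Ptprc against 63.6 CPM in all. In mature osteoblast-like cells, where 4 cells held 42.4% of the class II UMIs, the sum was 18.8 CPM without Ptprc cells against 21.5 CPM in all. No Cxcl12 stromal-like or pericyte or smooth muscle-like cell held 10 or more class II UMIs. In chondrocyte-like cells the sum was 133 CPM in the 1287 cells without Ptprc against 136 CPM in all.

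The regulators were scarce. Ciita was highest in late B-like cells (19.5 CPM), followed by conventional dendritic-like (7.65 CPM) and macrophage-like cells (5.42 CPM), and stood at 1.48 CPM in chondrocyte-like and 0.314 CPM in hypertrophic chondrocyte-like cells, where H2-Ab1 is at 127 and 192 CPM. Nlrc5 was at 12.9 CPM in T or NK-like cells, which is below the level of 3 counts there (19.3 CPM). It stood at 8.03 CPM in plasmacytoid dendritic-like cells, which is the level of 3 counts there, and at 5.07 CPM or less elsewhere. H2-Eb2 and H2-Oa, too, were highest in T or NK-like cells only through a few UMIs (12.9 and 32.2 CPM). Of the RFX and NF-Y factors that bind the X and Y boxes, 4 were tested between cartilage and osteoblast-like cells. For so few genes, the 0 that differed by 2-fold lie near the shares of all genes there (9.53% higher and 16.2% lower). Of 16 interferon receptor and response genes, 5 were tested there and all 5 were lower in cartilage, against 16.2% of all genes, such as Ifngr1 (17.4 against 81.0 CPM) and Irf1 (17.01 against 65.1 CPM). Between endothelial-like and skeletal cells 11 of the 16 were tested and all 11 were higher in the former, against 29.8% of all genes, among them Irf8 (91.6 against 6.50 CPM) and Irf1 (116 against 29.2 CPM).

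The genes most like Cd74 over the 20 classes, by Pearson correlation of log2(CPM + 1) among 7056 genes outside the members, were Ctss (0.914), Pld4 (0.893), Ly86 (0.889), Irf5 (0.88) and Slc15a4 (0.88). Ctss encodes cathepsin S, the protease that trims the invariant chain, and was highest in macrophage-like cells at 1299 CPM. The classes share 1 library and differ in depth, so these values only describe it.

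Osteoblast-like cells with more than 14 UMIs of WPRE (249) were set apart, after the study's cutoff for HC-derived cells, whose unit was taken to be UMIs. They were set against those at or below it (706). The sum of H2-K1 and H2-D1 was 366 CPM above and 319 CPM at or below, a log2 ratio of 0.20 (0.12 to 0.28). Of 17 members tested, 0 were higher by 2-fold or more, where 0.794% of 7936 genes were, and 4 were lower, where 1.58% of genes were. The median log2 ratio was -0.29 over the members and 0.0049 over all genes. The 4 were H2-Eb1, H2-Aa, Cd74 (15.1 against 68.7 CPM) and H2-Ab1, the class II genes that in these cells rested on 12 immature osteoblast-like cells. H2-K1 was 1.33-fold higher above the cutoff (163 against 122 CPM) while B2m (399 against 395 CPM) and H2-D1 (203 against 197 CPM) lay within counting error. By class, the log2 ratio of H2-K1 was 0.44 (0.29 to 0.60) in mature and 0.13 (-0.09 to 0.36) in immature osteoblast-like cells. That of the sum of H2-K1 and H2-D1 was 0.26 (0.15 to 0.37) in mature cells. In immature cells it was 0.09 (-0.04 to 0.21), within counting error.

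Not every gene with the H2- prefix was seen. Of the 13 members that reached 10 CPM in no class, 8 had 0 UMIs in the cells kept (H2-Q1, H2-M1, H2-M11, H2-M10.1, H2-M10.2, H2-M10.3, H2-M10.4 and H2-M10.5), where 3 counts would give 0.0219 CPM. The other 5, H2-T24, H2-M5, H2-Q2, H2-T3 and H2-M10.6, had 64, 29, 20, 5 and 2 UMIs. The remaining 30 are those named above and H2-Ke6, which encodes a hydroxysteroid dehydrogenase and no MHC molecule, and which stood at 7.38 to 34.8 CPM in all 20 classes. Counting families, 20 members reached 10 CPM in dendritic-like, 19 in B-like, 19 in myeloid-like, 16 in endothelial-like, 14 in stromal, 14 in skeletal and 5 in erythroid-like cells, 24 in at least 1 of them.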

How the data were processed

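The values are UMI counts per gene and cell as deposited by the authors, made with Cell Ranger 3.1.0 from 3' end reads on mm10, with a separate matrix for added sequences such as tdTomato and WPRE. The sources used here give neither the annotation release, nor the handling of reads that match several genes, nor the use of strand. The study's own cells had at least 1600 genes and excluded Ptprc clusters; here those leukocytes were kept.

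Barcodes passed with 1600 genes or more, mitochondrial UMIs up to 10% and ribosomal UMIs up to 50%, and were clustered in scanpy 1.11.5 (2000 variable genes without the members, 30 components, 20 neighbours, Leiden resolution 1) and 3056 leukocytes again at resolution 1.5. Classes were named from 23 marker lists; the naming rule and the second resolution were chosen with the clusters in view. Scrublet called 588 of 14181 barcodes (4.15%) doublets, and these were kept in the main values. No barcode was duplicated. UMIs were summed per class and given as CPM with exact Poisson intervals, and shares after thinning to 5000 UMIs. Comparisons used genes with at least 10 CPM on either side, log2 ratios with 1 CPM added (fold is 2 to that power) and a limit of 2-fold. The ratios and intervals were tested on simulated Poisson counts, which lack the clumping of UMIs in few cells seen here. Clustering, class naming, doublet calls and the motif search were not tested in this way. Named members had at least 10 CPM in at least 1 class. Members, gene lists and comparisons were chosen with earlier results of these data known. Coordinates are of GENCODE M21, in which all 43 members were found.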

Additional observations from a re-analysis of the deposited data

Results flagged for a closer look

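Class II transcripts were also present in barcodes that the comparisons left out. The 5476 barcodes under 1600 genes held 189.2 CPM (182.8 to 195.8) of H2-Aa, H2-Ab1, H2-Eb1 and Cd74 together, on 3266 UMIs in 585 barcodes, where 3 counts would give 0.174 CPM. Cd74 alone stood at 133.4 CPM. The cells kept held 371.9 CPM (368.7 to 375.2) of the same genes. These barcodes were flagged because they stand outside the report's comparisons and hold this signal above the limit that a count of 0 allows.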

How the results depend on the processing

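No paired analysis was possible because there is 1 library of 1 mouse, and for the same reason no replicate could be left out; depth limits genes of a few UMIs and the T or NK-like and plasmacytoid dendritic-like classes. Of 347 values recomputed over 15 alternatives, 163 stayed near the main value and 182 moved. Near means within the counting interval of the main value or, for counts of members, within a set factor of it. The other 2 changed sign, from a main value whose interval held a single sign. The log2 ratio of the class II sum between dendritic-like and skeletal cells, 5.52, was 5.998 with at most 5% mitochondrial UMIs, 5.58 at resolution 0.6, 5.71 at resolution 1.5, 5.29 with 3000 variable genes, 5.63 without doublet calls, 5.73 as a mean over cells, 5.76 with cells that hold Ptprc left out of the skeletal side only and 7.64 without H2-Ab1, an alternative chosen after seeing the data. The log2 ratio of the class I sum between myeloid-like and skeletal cells, 1.93, was 1.997 from 800 genes, 2.04 from 2000 genes, 1.75 with at most 5% mitochondrial UMIs, 1.83 at resolution 0.6, 2.10 at resolution 1.5, 2.04 with the members among the variable genes, 1.99 without doublet calls, 2.05 as a mean over cells and 2.04 with Ptprc cells left out of the skeletal side only. The reporter log2 ratio of class I, 0.20, was 0.10 at resolution 0.6, 0.28 as a mean over cells and 0.11 with tdTomato as the reporter. The log2 ratio of H2-Aa between cartilage and osteoblast-like cells, -2.77, was 0.18 from 2000 genes and 0.74 in cells with no Ptprc; the cause was not tested. Members higher in endothelial-like than in skeletal cells numbered 9 to 12, and members at 10 CPM in a family 24 or 25. Over 11 alternatives the cartilage ratio stayed at 2.56 to 4.12 for H2-Ab1, 3.21 to 5.00 for H2-DMa, 3.38 to 4.75 for H2-DMb1 and -3.52 to -3.02 for B2m.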
